A study of Homo sapiens with 6 samples.

Results

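The 31 genes described here belong to the amino acid response, the set of genes that the transcription factor ATF4 switches on when cells run short of amino acids or when translation initiation is slowed. They were chosen by name, and each was represented by the probe set (a group of short array probes for 1 transcript) with the highest mean signal over all 6 arrays, among the probe sets whose annotation gives that gene alone. All 31 genes had such a probe set, out of 19775 genes in the table, and they had 58 probe sets in total. Of the 31, 29 lay above the filter on dim probe sets (a signal of about 33.9) and were tested among 13679 genes. ALDH1L2 and FGF21 lay below it.

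In the integrated stress response, kinases that sense amino acid shortage, unfolded protein in the endoplasmic reticulum, double-stranded RNA or lack of haem phosphorylate the initiation factor eIF2. General translation then slows, while the ATF4 messenger RNA is translated more efficiently. ATF4 pairs with other bZIP proteins on C/EBP-ATF response elements and raises genes for amino acid synthesis, amino acid uptake and tRNA charging, together with its own partners and inhibitors. Because ATF4 is controlled largely at translation, its targets are usually read as the record of its activity, and in breast cancer cells the serine synthesis branch is well known for supplying one-carbon units.

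The cells were MDA-MB-231, an established human breast cancer line that lacks the oestrogen and progesterone receptors, grown in DMEM with serum. For 48 h, 3 samples labelled as replicates received 50 µM TCI04, an agent given only by this code name, and 3 received phosphate-buffered saline (PBS). Both groups shared the cell line, the medium and the time, and the study has no other dose, time or line. Whether the replicates were grown as separate cultures is not stated, and p-values therefore rest on a spread between arrays that may be technical. In a bulk sample, fewer cells that express a gene and less RNA per cell cannot be told apart.

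The arrays had equal trimmed mean signals (500.1 each), and their medians were 64.0 to 74.3 with PBS and 58.9 to 59.8 with TCI04. All 8 listed genes of the mesenchymal state of this line were above the filter, with VIM at 26217 to 31882, while CDH1 and PGR were below it, and 7 of 9 luminal or epithelial genes, KRT18 among them, were above it. Of markers of other cells, 2 of 4 leukocyte, 2 of 7 fibroblast and 2 of 5 endothelial genes were above the filter. Their summed signals were 136 to 250 with PBS and 113 to 195 with TCI04 for leukocytes, 629 to 683 and 510 to 731 for fibroblasts, and 278 to 291 and 220 to 268 for endothelium. PTPRC, CD14, CDH5 and COL1A2 were among those below it. Of the 6 above it, ITGAM had signals of 77.1, 76.5 and 82.8 with PBS and 39.5, 33.6 and 38.9 with TCI04, and PECAM1 191, 186 and 184 against 172, 141 and 171. In both, all TCI04 arrays were lower, with log2 fold changes of -0.90 (limma, adjusted p = 0.697) and -0.21 (limma, adjusted p = 0.764). Groups did not overlap in 13.6% of all genes tested. Below the filter, all TCI04 arrays were higher in CD14, at 7.79, 3.43 and 15.1 with PBS and 20.3, 19.0 and 27.1 with TCI04. They were all lower in COL1A2, at 56.3, 80.2 and 48.2 with PBS and 6.52, 31.9 and 4.74 with TCI04. The part of such markers in the members' values was not tested. TCI04 replicate 3 stood apart by the ACTB control of RNA quality: its ratio of 3' to 5' ACTB signal was 3.33, against 1.64 to 1.72 on the other arrays (p = 0.3 between the groups by an exact permutation test, two-sided, whose smallest possible p here is 0.1). By the GAPDH control its ratio was 1.21, against 0.97 to 1.08 on the other arrays (p = 0.6 between the groups by the same permutation test). Leaving out TCI04 replicate 3 moved the log2 fold changes of 18 of 29 members by more than 1.5 times or turned their sign, where leaving out another array did so for 10 to 14. The values without TCI04 replicate 3 are given below for those 18 members.

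With TCI04, none of the 29 tested members rose or fell past the adjusted threshold of 0.05 (limma, Benjamini-Hochberg over 32746 probe sets). Over all probe sets 0% were called higher and 0.00305% lower. The smallest adjusted p of a member was 0.697. At an unadjusted p under 0.05 there were 3 members, PPP1R15A, SLC3A2 and AARS1, all with a lower mean. This was 10.3% of the 29, where 7.05% of all genes tested reached that p (2.9% higher and 4.15% lower). In 6 members (20.7%) the arrays of the groups did not overlap, 3 higher and 3 lower, against 13.6% of all genes (6.66% higher and 6.92% lower). The median log2 fold change was 0.018 over the 29 members and -0.0025 over all genes, with 16 members higher and 13 lower. The split was 17 and 12 after quantile normalization, and 24 and 5 with each array centred on its median, which put the median of all genes at 0.16; 16 members lay above that median. In that setting 9 of 29 members, all higher, had an unadjusted p under 0.05, where 18.4% of all genes were higher at that p and 1.01% lower, and none passed the correction (lowest adjusted p = 0.28, limma). All fold changes here are differences of log2(signal + 10.96), TCI04 minus PBS, a scale that understates changes of dim genes.

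In the main fit, and on the scale of log2(signal + 10.96), the intervals set a limit on any rise. For 28 of the 29 members the 95% interval ended below a 1.5-fold rise, as it did for 84.9% of all genes, and for all 29 it ended below a 2-fold rise, as it did for 95.4% of all genes. CHAC1 was the exception at 1.5-fold, with an upper bound of 1.51-fold. With median centring, which moved the members' median log2 fold change to 0.178, these bounds would lie higher and were not counted. In the main fit the intervals of 25 members lay within 1.5-fold on both sides (86.2%, against 66.5% of all genes). The members' intervals were narrower than those of all genes, with a median half-width of 0.175 against 0.276. Narrower intervals fall within a given limit more often, so these shares do not compare the size of the changes.

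**Figure D1:**
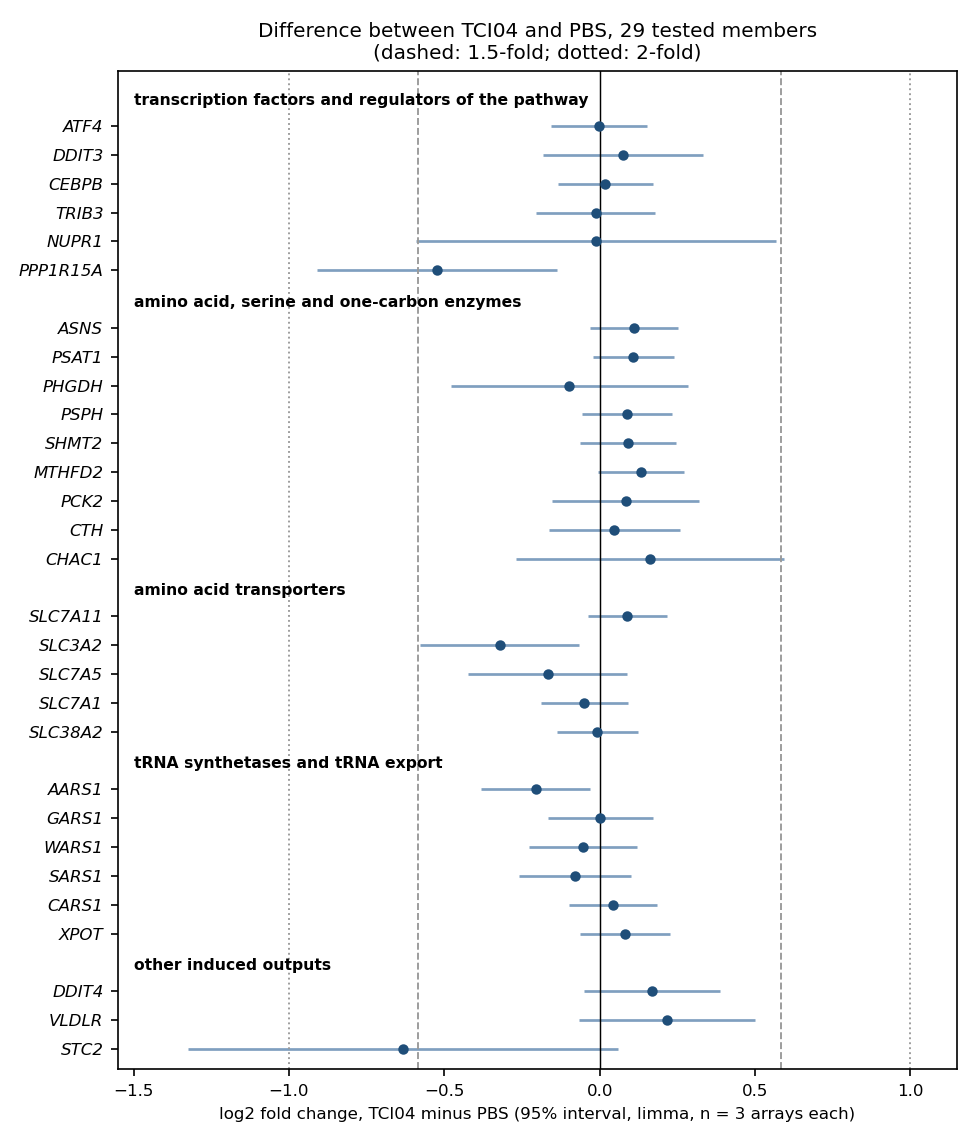
Log2 fold change (x axis, TCI04 minus PBS) of each of the 29 tested members (y axis, grouped by role), with points for the limma estimate and bars for its 95% interval (n = 3 arrays per group). The bars of PPP1R15A, SLC3A2 and AARS1 lie wholly below 0, none lies wholly above it, and no bar reaches a 2-fold rise.

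The letters through which ATF4 is known to act can be seen in the promoters of several members. RefSeq promoters (GRCh38.p14, 250 bases before to 50 after a transcription start) were matched by symbol for 26 of the 31 genes and searched on both strands for TGATGNAAN, the C/EBP-ATF response element in a relaxed form, and for the shorter TGATGCAA, which overlaps it. The first was found in 8 of 26 members (30.8%) and in 4.45% of all 27305 genes of the table, and the shorter form in 4 members (15.4%) and in 1.08% of genes. The 8 were ASNS, CHAC1, SLC3A2, SLC7A1, AARS1, GARS1, CARS1 and FGF21. The stretches of 4 measured members whose match lies upstream of the start are shown because they carry the element beside transcripts whose levels are given here; each is written 5' to 3' on the gene's strand with the match in capitals.
ASNS, chr7:97872448-97872496, minus strand, match as written, 68 bases upstream: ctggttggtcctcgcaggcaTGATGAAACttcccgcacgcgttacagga
CHAC1, chr15:40953241-40953289, plus strand, match as reverse complement, 210 bases upstream: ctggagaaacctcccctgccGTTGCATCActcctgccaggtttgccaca
AARS1, chr16:70289666-70289714, minus strand, match as reverse complement, 188 bases upstream: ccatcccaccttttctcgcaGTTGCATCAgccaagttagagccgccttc
GARS1, chr7:30594824-30594872, plus strand, match as reverse complement, 34 bases upstream: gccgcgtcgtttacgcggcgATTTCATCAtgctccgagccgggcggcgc

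A match is a stretch of letters, not a shown binding site. Of the 7 tested members with the element, 4 had a higher and 3 a lower mean with TCI04, with a median log2 fold change of 0.0016. Of the 18 tested members in the promoter table without it, 9 had a higher and 9 a lower mean, with a median of 0.0079. The CHAC1 and AARS1 stretches hold the same 9 letters as the CARS1 promoter, whose match, 3 bases upstream, is not shown. The transcripts of CHAC1, AARS1 and CARS1 had log2 fold changes of 0.16, -0.21 and 0.043.

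Among the 6 transcription factors and regulators, none passed the test, and 2 had a higher mean with TCI04 (3 after quantile normalization, 5 with median centring). With median centring 2 of the 6 lay above the median of all genes. ATF4 itself, the bZIP activator, had signals of 9105, 10422 and 10904 with PBS and 9820, 10213 and 10264 with TCI04. The 3 TCI04 arrays lay inside the range of the PBS arrays. The difference was -0.0025 on the log2 scale (standard error 0.07, 95% interval -0.16 to 0.15; limma, adjusted p = 0.996). It was 0.16 with median centring of the arrays, the same as the median of all genes in that setting.

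DDIT3 (CHOP), the bZIP factor that takes the response toward cell death, had signals of 461, 468 and 393 with PBS and 434, 503 and 456 with TCI04. The groups overlapped, at a log2 fold change of 0.08 (standard error 0.12, interval -0.18 to 0.33; limma, adjusted p = 0.887). In the main fit the interval allows a rise of up to 1.26-fold. CEBPB, a partner of ATF4 on the response element, had a log2 fold change of 0.018. TRIB3, a pseudokinase induced by ATF4 and DDIT3 that restrains ATF4, had one of -0.013, with signals averaging 706 ± 12.9 (PBS) and 700.2 ± 25.2 (TCI04; SD, n = 3). Its dimmer probe set gave -0.62, with an interval from -1.38 to 0.14 that includes the value of the brighter one. NUPR1, a small stress-induced chromatin protein, was dim (50 to 67 over the 6 arrays), and its interval was wide, from -0.59 to 0.57. Without TCI04 replicate 3, ATF4 gave -0.014, CEBPB 0.0093, TRIB3 -0.032 and NUPR1 -0.097.

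PPP1R15A (GADD34), the subunit that directs protein phosphatase 1 to eIF2 and ends the response, had the lowest p of the members. Its signals were 628, 612 and 519 with PBS and 460, 482 and 295 with TCI04. All TCI04 arrays lay below all PBS arrays, and TCI04 replicate 3 lay lowest. The mean signal was 586 ± 58.7 and 412 ± 102 (SD, n = 3), 1.42-fold lower. On the log2 scale this was -0.52 (standard error 0.17, interval -0.91 to -0.14; limma, unadjusted p = 0.0125, adjusted p = 0.697). Its other probe set also had groups that did not overlap, at 445, 435 and 381 with PBS and 367, 335 and 200.1 with TCI04, and a difference of -0.51. The brighter probe set gave -0.31 without TCI04 replicate 3 (adjusted p = 0.818). The part of the high ACTB ratio of that array in these values was not tested. PPP1R15A fails the correction. Its mean was lower in all 18 alternative settings, but many of these could not have turned it. Groups that do not overlap keep their direction when an array is left out. The filters, variance models and replicate block leave a fold change as it is.

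**Figure D2:**
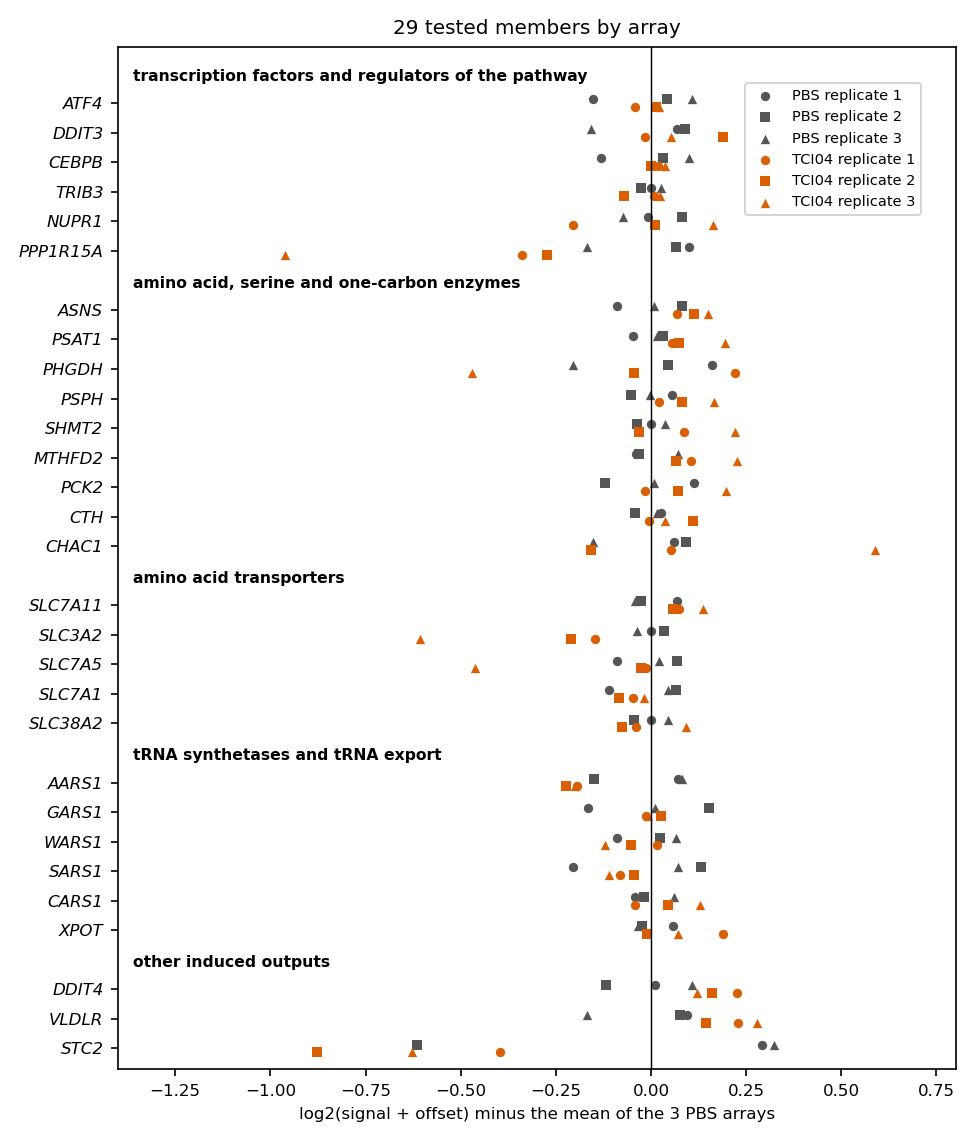
Each array's log2(signal + offset) minus the mean of the 3 PBS arrays (x axis) for the 29 tested members (y axis, grouped by role), with grey points for PBS, orange points for TCI04 and 1 symbol per replicate number. In PPP1R15A, SLC3A2 and AARS1 all orange points lie left of all grey points, in PSAT1, DDIT4 and VLDLR all lie right of them, and TCI04 replicate 3 lies far from the other arrays in PPP1R15A, PHGDH, CHAC1, SLC3A2 and SLC7A5.

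The enzymes of amino acid, serine and one-carbon metabolism had a higher mean with TCI04 in 8 of 9 tested genes, by at most 0.16 on the log2 scale, and none passed the test. The count was 8 of 9 after quantile normalization, 9 of 9 with median centring and 7 of 9 with averaged probe sets. With median centring the median of all genes was 0.157, and 8 of the 9 lay above it. In the main fit the median of the 9 was 0.092, and it was 0.052 without TCI04 replicate 3. PSAT1, the serine synthesis aminotransferase, had signals of 8157, 8628 and 8528 with PBS and 8762, 8879 and 9658 with TCI04. The groups did not overlap, but the lowest TCI04 array lay close above the highest PBS array. Its log2 fold change was 0.11 (standard error 0.06, interval -0.02 to 0.24; limma, adjusted p = 0.705), and it was 0.064 without TCI04 replicate 3, the highest array. The dimmer probe set of PSAT1 gave -0.027.

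ASNS, asparagine synthetase, whose promoter stretch is shown above, had signals of 4301, 4849 and 4605 with PBS and 4801, 4953 and 5077 with TCI04. Its arrays overlapped by a single pair, PBS replicate 2 and TCI04 replicate 1, and the log2 fold change was 0.11 (interval -0.03 to 0.25), or 0.065 without PBS replicate 1. MTHFD2, the mitochondrial folate dehydrogenase, had a log2 fold change of 0.13 (interval -0.0065 to 0.27), the smallest p of the group (unadjusted p = 0.0598, limma). The dimmer probe set of MTHFD2 gave -0.0079. PSPH, which completes serine synthesis, gave 0.089, and its 2 other probe sets gave 0.13 and -0.16. PCK2, the mitochondrial form of phosphoenolpyruvate carboxykinase, gave 0.08, and CTH, which makes cysteine from cystathionine, gave 0.05 and 0.24 from its 2 probe sets. In the dimmer CTH probe set the groups did not overlap, at 224, 203 and 206 with PBS and 234, 244 and 277 with TCI04 (limma, adjusted p = 0.712). Without TCI04 replicate 3 the brightest probe sets gave 0.086 for MTHFD2, 0.051 for PSPH, 0.026 for PCK2 and 0.028 for SHMT2.

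SHMT2, the mitochondrial serine hydroxymethyltransferase, is a case where probe sets part. The brightest gave a log2 fold change of 0.092, the next 0.058, and the dimmest -0.25, with signals of 1234, 1249 and 1288 with PBS and 1089, 1138 and 955 with TCI04. In the dimmest the groups did not overlap (limma, unadjusted p = 0.0167). No single direction can therefore be given for this transcript.

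PHGDH, the first enzyme of serine synthesis, was the only tested enzyme of the 9 with a lower mean. Its signals were 536, 495 and 414 with PBS and 560, 464 and 342 with TCI04. The highest and the lowest array were both TCI04 arrays. The difference was -0.098 on the log2 scale (interval -0.48 to 0.28) and turned to 0.089 without TCI04 replicate 3 and to 0.062 with median centring. CHAC1, which degrades glutathione and is a sensitive target of ATF4, had signals of 235, 240.5 and 201 with PBS and 234, 200.3 and 344 with TCI04. Only TCI04 replicate 3 was high. Its log2 fold change was 0.16 (standard error 0.19; limma, adjusted p = 0.848), and -0.052 without that array. ALDH1L2, a mitochondrial folate enzyme below the filter, had signals of 9.2, 7.98 and 24.6 with PBS and 63.5, 22.7 and 6.6 with TCI04, without order between the groups.

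Of the 5 amino acid transporters, 4 had a lower mean and 1 a higher mean with TCI04, and none passed the test. The count of lower means was 3 after quantile normalization and 2 with median centring. With median centring the median of all genes was 0.157, and 1 of the 5 lay above it. SLC3A2 (4F2hc), the heavy chain that carries both SLC7A11 and SLC7A5 to the cell surface, had signals of 1209, 1239 and 1179 with PBS and 1090, 1043 and 790 with TCI04. All TCI04 arrays lay below all PBS arrays. The mean was 1.24-fold lower, or -0.32 on the log2 scale (standard error 0.12, interval -0.58 to -0.065; limma, unadjusted p = 0.0189, adjusted p = 0.697). It was -0.18 without TCI04 replicate 3 (adjusted p = 0.818), and the part of the ACTB ratio of that array was not tested.

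The light chains of SLC3A2 did not share 1 value. SLC7A5 (LAT1), which imports leucine and other large neutral amino acids, had signals of 1807, 2019 and 1952 with PBS and 1906, 1889 and 1394 with TCI04. Only TCI04 replicate 3 was outside the PBS range, and the log2 fold change of -0.17 became -0.02 without it. SLC7A11 (xCT), which exchanges glutamate for cystine, had a log2 fold change of 0.089 from its brightest probe set, and of 0.053 and -0.16 from the 2 others. Whether SLC3A2 and its light chains differ from each other was not tested.

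SLC38A2 (SNAT2), a sodium-coupled transporter of small neutral amino acids, had signals of 13849, 13430 and 14280 with PBS and 13483, 13148 and 14754 with TCI04. The groups overlapped widely. They differed by -0.0074 on the log2 scale (standard error 0.06, interval -0.14 to 0.12; limma, adjusted p = 0.982), or -0.057 without TCI04 replicate 3. Its 2 other probe sets gave 0.049 and 0.066. SLC7A1 (CAT1), the arginine and lysine transporter, had a log2 fold change of -0.05 from its brightest probe set. Its 3 other tested probe sets were all lower, at -0.29, -0.34 and -0.79, and in 2 of these, with signals of 730, 653 and 671 against 627, 550 and 499 and of 103, 61.2 and 59 against 54.6, 35 and 26.3, the groups did not overlap. In the mean of its probe sets SLC7A1 gave -0.38.

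**Figure D3:**
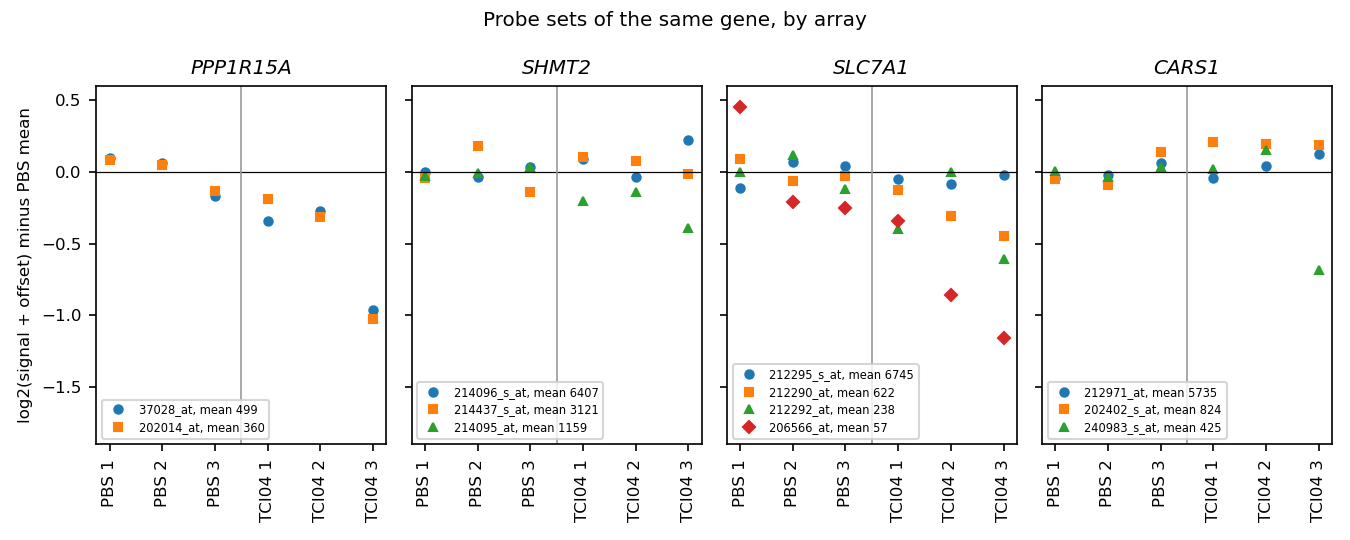
Log2(signal + offset) minus the mean of the 3 PBS arrays (y axis) on each array (x axis) for the tested probe sets of PPP1R15A, SHMT2, SLC7A1 and CARS1, with 1 symbol per probe set and its mean signal in the key. The probe sets of PPP1R15A move together, while in the other 3 genes the dimmest probe set is the lowest of its gene on TCI04 replicate 3 and the brightest is not.

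Such differences between probe sets ran through the group. Of 31 members, 17 had more than 1 probe set, and 21 of the 27 other probe sets were tested. Of these 21, 11 had the same sign as the brightest probe set of their gene and 10 the opposite sign. They were lower in 13 cases and higher in 8. In 9 of the 13 lower cases TCI04 replicate 3 had the lowest signal of all arrays. Cases picked for a lower TCI04 mean favour a TCI04 array as the lowest, so this count has no like share over all probe sets. Over all 50 tested probe sets of the members this array was the lowest in 14 and the highest in 19. Over the 29 brightest probe sets this array was the highest in 12 and the lowest in 5. Over all 32746 probe sets it was the highest in 20.7% and the lowest in 23.0%.

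The genes of tRNA charging and export were evenly divided, with 3 of 6 higher and 3 lower, and none passed. After quantile normalization 2 of 6 were higher, and with median centring 5 of 6, of which 3 lay above the median of all genes. AARS1, alanyl-tRNA synthetase, whose promoter stretch is shown above, had signals of 2158, 1850 and 2173 with PBS and 1794, 1760 and 1787 with TCI04. The TCI04 arrays lay close together and all below the PBS arrays, of which replicate 2 came nearest. The difference was -0.21 on the log2 scale (standard error 0.08, interval -0.38 to -0.031; limma, unadjusted p = 0.0254, adjusted p = 0.697). It was as low without TCI04 replicate 3 (-0.21), and -0.046 with median centring, where the median of all genes was 0.16.

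SARS1, seryl-tRNA synthetase, had signals of 8637, 10902 and 10457 with PBS and 9395, 9653 and 9208 with TCI04. The TCI04 arrays all lay between PBS replicate 1 and the other 2 PBS arrays. Its log2 fold change was -0.079 (standard error 0.08, interval -0.26 to 0.10; limma, adjusted p = 0.823), which became -0.18 without PBS replicate 1 and -0.013 without PBS replicate 2. The dimmer probe set gave 0.14. GARS1, glycyl-tRNA synthetase, gave 0.0016, with signals of 7174, 8948 and 8106 with PBS and 7969, 8194 and 7997 with TCI04. WARS1, the tryptophanyl enzyme that interferon also induces, gave -0.053 and -0.12 from its 2 probe sets. CARS1, the cysteinyl enzyme, gave 0.043 from its brightest probe set, and 0.00097 without TCI04 replicate 3. Its 2 other tested probe sets gave 0.198, with groups that did not overlap (741, 717 and 845 against 888, 880 and 873; limma, adjusted p = 0.697), and -0.17. Without that array GARS1 gave 0.0066 and WARS1 -0.019. XPOT, the exporter of tRNA from the nucleus, gave 0.083 and -0.0067 from its 2 probe sets.

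Among the remaining outputs, DDIT4 and VLDLR had higher TCI04 arrays throughout. DDIT4 (REDD1), an inhibitor of mTORC1 signalling that hypoxia and glucocorticoids also induce, had signals of 571, 521 and 612 with PBS and 665, 634 and 617 with TCI04. The groups did not overlap, although the lowest TCI04 and the highest PBS array were close. The log2 fold change was 0.17 (standard error 0.099, interval -0.051 to 0.39; limma, adjusted p = 0.715), or 0.11 without PBS replicate 2. VLDLR, the very low density lipoprotein receptor, had signals of 316, 312 and 261 with PBS and 348, 328 and 360.0 with TCI04, 1.17-fold higher. This was 0.22 on the log2 scale (standard error 0.13, interval -0.065 to 0.50; limma, adjusted p = 0.714), or 0.13 without PBS replicate 3, the lowest array.

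STC2, a secreted glycoprotein, had the lowest log2 fold change of the members, -0.63, on a dim signal of 111, 54 and 113 with PBS and 64.5, 43.1 and 53.4 with TCI04. PBS replicate 2 lay among the TCI04 arrays, and the interval ran from -1.33 to 0.058 (limma, adjusted p = 0.697). FGF21, a secreted hormone that ATF4 induces in liver, had signals of 7.22, 8.97 and 22.6 with PBS and 19.1, 7.62 and 4.77 with TCI04, all below the filter. Fitted without a filter on level, ALDH1L2 and FGF21 had intervals from -0.63 to 1.76 and from -0.98 to 0.67, so the arrays set hardly any limit on these transcripts.

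The rest of the pathway was read from 86 other genes, of which 79 had a probe set of their own and 75 were tested. None passed the adjusted threshold (limma), 51 had a higher and 24 a lower mean, and the median log2 fold change was 0.029. At an unadjusted p under 0.05 (limma) there were 6 higher and 1 lower, 9.33% of the 75, where all genes gave 7.05% (2.9% higher and 4.15% lower). In 12 genes (16%) the groups did not overlap, 10 higher and 2 lower, against 13.6% of all genes (6.66% higher and 6.92% lower). After quantile normalization 48 had a higher mean, of which 41 lay above the median of all genes. With median centring 66 had a higher mean, of which 51 lay above the median of all genes. When each gene's probe sets were averaged, 36 were higher and 38 lower, with a median of -0.0051, where all genes had -0.036. The list's median lay 0.031 above that of all genes there, and 0.032 above it in the main fit. Above the median of all genes lay 40 of 74 with averaged probe sets and 51 of 75 in the main fit. With averaged probe sets 2 higher and 3 lower reached an unadjusted p under 0.05 (limma). Of 18 genes for eIF2, its kinases, its exchange factor eIF2B and its phosphatases, 13 had a higher mean, 9 without TCI04 replicate 3 and 10 with averaged probe sets. The kinases EIF2AK3 (PERK), EIF2AK4 (GCN2), EIF2AK1 (HRI) and EIF2AK2 (PKR) had log2 fold changes of 0.14, -0.059, -0.035 and 0.02, given here by choice after their values were seen. PPP1CB, a catalytic subunit that PPP1R15A binds, had a mean signal of 3072 ± 186 (PBS) and 3590 ± 89.9 (TCI04; SD, n = 3), 0.23 on the log2 scale (limma, unadjusted p = 0.00613, adjusted p = 0.697). PPP1CA, another catalytic subunit, gave -0.21.

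Of 8 related bZIP factors, 5 had a higher mean. CEBPG, a partner of ATF4, gave 0.197 and JDP2, a repressor that binds AP-1 sites, 0.33, each with an adjusted p of 0.697. Of 24 further targets, 17 had a higher mean. With averaged probe sets 10 of 23 did, with a median of -0.028, where all genes had -0.036, and 12 lay above that value. TNFRSF10B, the death receptor that DDIT3 induces, measured 3983, 4120 and 3915 with PBS and 4599, 4841 and 4524 with TCI04. The groups did not overlap, and the log2 fold change was 0.22 (limma, unadjusted p = 0.0041, adjusted p = 0.697). VEGFA, an angiogenic factor that also answers to hypoxia, gave 0.24. SESN2, a leucine sensor that ATF4 induces, gave -0.42 (interval -0.78 to -0.061), failed the correction too, and was chosen for mention after its value was seen.

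Of 12 other amino acid transporters, 8 had a higher mean, and 5 with averaged probe sets, with SLC7A2, a cationic amino acid transporter, at 0.34 and SLC43A2 (LAT4) at 0.51 with an interval from -0.21 to 1.22. Of 13 other cytosolic tRNA synthetase genes, 8 had a higher mean, and 6 after quantile normalization or with averaged probe sets. FARSA gave -0.21 and HARS1 0.12. With averaged probe sets the median of all genes was -0.036. Above it lay 6 of the 12 transporters and 7 of the 13 synthetase genes.

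The other arms of the unfolded protein response were read by 20 genes, here called XBP1 and ATF6 targets in the endoplasmic reticulum. The list also holds XBP1, ATF6 and ERN1 (IRE1) themselves. A higher mean was found in 15 of the 20 (16 after quantile normalization, 20 with median centring), with a median log2 fold change of 0.07. With averaged probe sets 10 were higher and 10 lower, with a median of 0.0037, where all genes had -0.036. Above the median of all genes lay 16 of 20 in that setting, with median centring and in the main fit, and 14 after quantile normalization. None passed the threshold (limma). At an unadjusted p under 0.05 there were 2 of 20, both higher, where 7.05% of all genes reached that p and 2.9% were higher. XBP1, the spliced transcription factor of the IRE1 arm, measured 1992 ± 62.6 (PBS) and 2303 ± 119 (TCI04; SD, n = 3), 0.21 on the log2 scale (limma, adjusted p = 0.697), and SEC61B, a subunit of the translocon, gave 0.17. Whether these 20 genes differ from the 29 members was not tested.

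**Figure D4:**
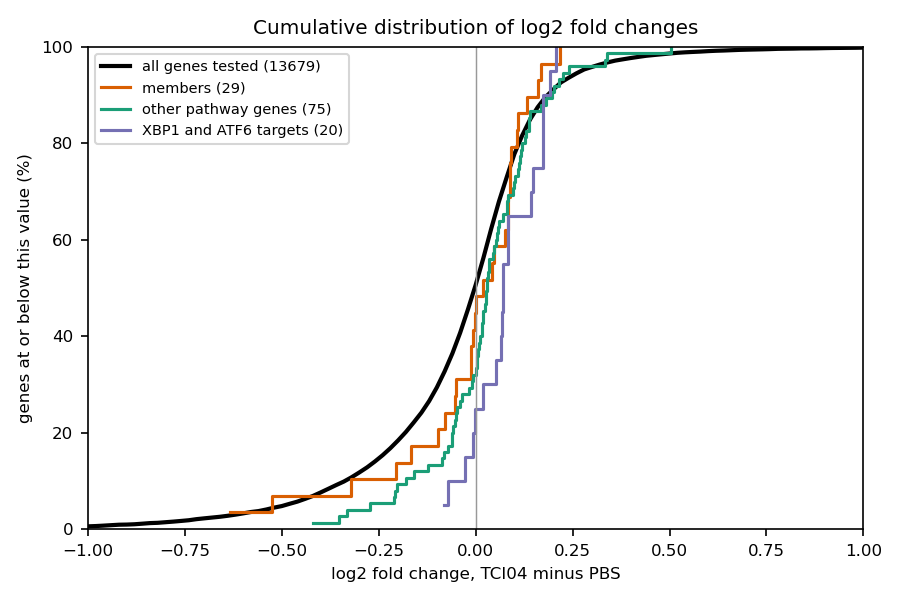
Cumulative share of genes (y axis, percent) at or below each log2 fold change (x axis, TCI04 minus PBS) for all 13679 genes tested, the 29 members, 75 other pathway genes and 20 XBP1 and ATF6 targets. The curve of the members has its median at 0.018, close to that of all genes, and those of the other lists have theirs at 0.029 and 0.07.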

How the data were processed

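The authors deposited linear intensity values made with MAS5 (per the submitters' processing notes), 1 per probe set and array, whose means after trimming 2% at each end are equal across arrays. For the genome build and MAS5 version, the sources used here say nothing. The offset of 10.96 added before taking log2 was the 20th percentile of the table. The 62 control probe sets and those with a mean log2 value below the 40th percentile were left out, leaving 32746. The groups were compared with limma 3.58.1 in R 4.3.3 (moderated variances with a trend, two-sided tests), adjusting over all probe sets tested. The steps were tested on simulated data.

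The members, role groups, other lists and settings were chosen with earlier results of these data known. All members were named; in full were given those whose groups do not overlap, ATF4, DDIT3 and the brightest of each role. Of other lists, the genes with the 2 smallest p were named; the eIF2 kinases and SESN2 were chosen after their values were seen. Gene symbols are those of the platform annotation.

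Alternatives were other normalizations, offsets, filters, probe set choices and variance models, array weights, a block for the replicate number, and leaving out each array. The number of arrays limits the precision.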

Additional observations from a re-analysis of the deposited data

How the results depend on the processing

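In 18 alternative settings no member, other pathway gene or XBP1 or ATF6 target passed the threshold (limma); the lowest adjusted p of a member was 0.28, with median centring. Of the 29 members, 15 kept their sign in all 18 settings and 17 in the 12 that leave out no array. Several of these settings cannot turn a sign, as the filters, the variance models and the replicate block leave a fold change as it is. Median centring moved the members' median to 0.178, where all genes had 0.157, and the members whose groups do not overlap from 6 to 14 of 29, where all genes gave 30.9%. It turned the log2 fold changes of ATF4 (0.157), NUPR1 (0.149), PHGDH (0.062), SARS1 (0.081), SLC38A2 (0.152), SLC7A1 (0.11), TRIB3 (0.147) and WARS1 (0.107), none of them above the all-gene median. Quantile normalization turned CEBPB (-0.0073), GARS1 (-0.0057), NUPR1 (0.158), SLC38A2 (0.013) and TRIB3 (0.0025). Array weights turned CEBPB (-0.0036), GARS1 (-0.0295) and PHGDH (0.036). Averaging each gene's probe sets turned SARS1 (0.031), SHMT2 (-0.032), SLC38A2 (0.036) and SLC7A11 (-0.0046), and leaving out the probe sets marked as shared or cross-hybridizing turned SHMT2 (-0.25). Leaving out each array in turn gave members' medians of -0.0074 to 0.052 and 6 to 14 members without overlap: 14 without PBS replicate 1, and 10 without TCI04 replicate 1 or 2. With 1 array fewer, groups overlap less often by construction; all genes gave 26.4%, 23.2% and 25.4% there. Signs turned in ATF4 (-0.078 to 0.052), CEBPB (-0.047 to 0.068), CHAC1 (-0.052 to 0.32), DDIT3 (-0.0034 to 0.12), GARS1 (-0.081 to 0.078), NUPR1 (-0.097 to 0.086), PHGDH (-0.26 to 0.089), SLC38A2 (-0.057 to 0.026) and TRIB3 (-0.032 to 0.016). The cause of these changes was not tested.

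With the replicate number as a block, 0 members were called (limma, lowest adjusted p 0.43). At an unadjusted p under 0.05 (limma) there were then 2 higher and 4 lower of 29, where all genes gave 3.28% higher and 5.22% lower. In this balanced design a block cannot change a fold change, its sign or the overlap of the groups, so only the p-values could differ. Deviations of same-numbered arrays correlated at 0.0036, 0.062 and 0.05, and those of differently numbered arrays at -0.061 to 0.0092. As all were small, the numbers were not taken to pair the samples.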
